A study of Homo sapiens with 12 samples.

Results

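The Krüppel-like factors (KLFs) are transcription factors that bind GC-rich and CACCC-type DNA elements through zinc fingers at the carboxyl end of the protein. Members differ in the rest of the protein, so that some mainly activate and others mainly repress transcription, in part by recruiting histone acetylases, CtBP or the SIN3A co-repressor. In epithelia they are best known for control of proliferation and differentiation, and several are short-lived proteins degraded by the proteasome. The set described here is 10 KLF genes, KLF2, KLF3, KLF4, KLF5, KLF6, KLF7, KLF9, KLF10, KLF11 and KLF13. Their rule is the gene symbol, applied to the 58676 genes of the deposited table, and the family was picked with earlier results of these data known. Of the 10, 9 had a mean FPKM (reads of a gene per kilobase of its length, divided by the library's depth) of at least 1 and were tested, and KLF9 was below that level.

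The cells were A549, a human line established from a lung carcinoma, and RNA was sequenced in 12 libraries. A control line (labelled Control1) and NFE2L1 knockout lines KO1 and KO2 were each given DMSO vehicle or 200 nM bortezomib, a proteasome inhibitor, for 4 h. NFE2L1 encodes a CNC-bZIP transcription factor that is itself turned over by the proteasome and drives proteasome genes when proteasome activity falls. Each of the 6 groups (control, KO1 or KO2, in vehicle or bortezomib) had 2 libraries, called replicate 1 and replicate 2 below. Replicate 2 carries the suffix R2 in its title. Replicate 1 carries R1 in the KO groups and no suffix in the control groups. There is 1 control line and 1 line under each knockout label, so the loss of NFE2L1 and anything else in which the lines differ cannot be told apart. Nothing in the labels says that the libraries of a group came from separate cultures, so the p-values measure the spread between these libraries, which may be technical.

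Depth ranged from 13211608 to 23819258 assigned reads per library. Mitochondrial genes took 12.3% to 19.3% of assigned reads in the 6 replicate 2 libraries and 5.44% to 6.80% in the other 6. NFE2L1 itself was at 72.7 and 151 FPKM in control vehicle libraries, 8.45 and 14.8 in KO1 and 18.6 and 33.6 in KO2, so both KO lines were below the control line while NFE2L1 RNA was still counted. Among cell type markers, keratin 18 (KRT18) ranged from 111.5 to 586 FPKM and the A549 marker AKR1B10 from 545 to 1597. The alveolar type 2 markers NKX2-1, SFTPB and SFTPC did not exceed 0.13 FPKM in any library. Endothelial, leukocyte and fibroblast markers PECAM1, CDH5, PTPRC, CD68 and DCN did not exceed 0.20 FPKM, while COL1A1 was at 1.42 to 5.18 FPKM in vehicle and 6.10 to 23.3 in bortezomib libraries.

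Promoter windows are shown first for the members on which the results turn, KLF11 and KLF6 for bortezomib and KLF4 for the knockout lines. They are RefSeq sequences of build GRCh38.p14 that run from 250 bases before to 50 bases after an annotated start, 5′ to 3′ on the gene's strand. Capitals mark a cAMP response element, searched as TGACGTCA, and a CNC-bZIP/MAF type element, searched as TGACNNNGC, on both strands. The windows are KLF11 at chr2:10043971-10044270 (plus strand), KLF6 at chr10:3785160-3785459 (minus strand) and KLF4 at chr9:107489720-107490019 (minus strand).

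KLF11: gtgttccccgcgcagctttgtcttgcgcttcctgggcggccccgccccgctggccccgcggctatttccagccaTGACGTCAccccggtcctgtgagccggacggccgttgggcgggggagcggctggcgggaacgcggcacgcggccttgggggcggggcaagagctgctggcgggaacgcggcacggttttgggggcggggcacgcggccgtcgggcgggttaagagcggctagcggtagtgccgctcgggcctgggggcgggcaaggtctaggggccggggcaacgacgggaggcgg
KLF6: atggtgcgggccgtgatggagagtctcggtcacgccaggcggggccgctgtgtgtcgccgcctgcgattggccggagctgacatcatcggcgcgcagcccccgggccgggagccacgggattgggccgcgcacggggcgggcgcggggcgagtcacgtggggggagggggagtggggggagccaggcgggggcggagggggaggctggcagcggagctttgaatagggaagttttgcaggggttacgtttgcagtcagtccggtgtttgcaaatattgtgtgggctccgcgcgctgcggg
KLF4: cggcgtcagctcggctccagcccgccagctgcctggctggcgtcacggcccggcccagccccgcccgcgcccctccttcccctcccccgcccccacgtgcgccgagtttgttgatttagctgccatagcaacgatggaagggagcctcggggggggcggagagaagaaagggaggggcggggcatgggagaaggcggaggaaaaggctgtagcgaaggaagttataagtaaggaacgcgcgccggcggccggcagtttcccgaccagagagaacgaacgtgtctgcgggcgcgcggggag

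The windows of KLF6 and KLF4 hold neither element and are therefore all in lower case. Of the 10 members, 8 had a window that was searched, with 13 windows in all. KLF3 and KLF10 had none. Member windows on chromosome 8, which holds KLF10, were left out of the search, while the promoters used as background had no such exclusion. The cAMP response element letters occurred in 1 of the 13 windows, the KLF11 window above, at position −176 from its start, and in 1.85% of 35116 promoters of the same length. KLF11 had another window, at another annotated start (chr2:10043579-10043878), and it did not hold these letters. CNC-bZIP/MAF letters occurred in 0 of the 13 windows and in 13.35% of all promoters. A GC box (GGGCGG), the kind of element to which KLF and SP proteins bind, was in 8 of the 13 windows, from 7 genes, against 44.95% of all promoters. The shorter CACCC letters were in 7 windows from 4 genes, against 59.87%. A heat shock element core (GAANNTTC) was in 1 of the 13 windows, against 6.77% of promoters, and a C/EBP-ATF element (TGATGNAA) in 1, against 3.62%. Both windows are of KLF7 but belong to different annotated starts (chr2:207167197-207167496 and chr2:207134088-207134387). These are letter matches in a short window and say nothing about binding.

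FPKM is per gene length, so levels can be set beside each other. KLF10, a TGF-β-inducible repressor, had the highest mean of the 10 in vehicle in each line, at 22.3 ± 10.1 in control, 17.5 ± 7.0 in KO1 and 18.2 ± 6.6 in KO2 (FPKM, SD, n = 2). KLF6, a widely expressed activator and immediate-early gene, came next in control and KO1. KLF5, which supports epithelial proliferation, was second in KO2. KLF10 was separate from KLF6 in control vehicle libraries only, and overlapped its neighbour in the other vehicle groups. In bortezomib, KLF6 had the highest mean in KO1 and KO2, at 21.9 ± 1.4 and 18.6 ± 1.6 FPKM. There it was separate from KLF10 in KO1 and overlapped KLF5 in KO2. KLF9, a glucocorticoid-responsive repressor, had the lowest mean in each of the 6 groups and its ranges were below those of its neighbour in each. KLF11 was the next lowest in vehicle in all 3 lines. Most other neighbours in the order overlapped within a group.

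Replicate 2 was lower than replicate 1 in all 6 groups for KLF3, KLF5, KLF6, KLF7, KLF9 and KLF11, in 5 for KLF2 and KLF10, and in 4 for KLF4 and KLF13. The median ratio of replicate 2 to replicate 1 ran from 0.486 for KLF5 to 0.926 for KLF13. Differences between the replicates of a group were correlated across genes between all groups, so each comparison was tested with and without a replicate term, and for the members both values are given where they differ in their call. Whether the mitochondrial share has a part in the members' replicate shift was not tested.

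**Figure D1:**
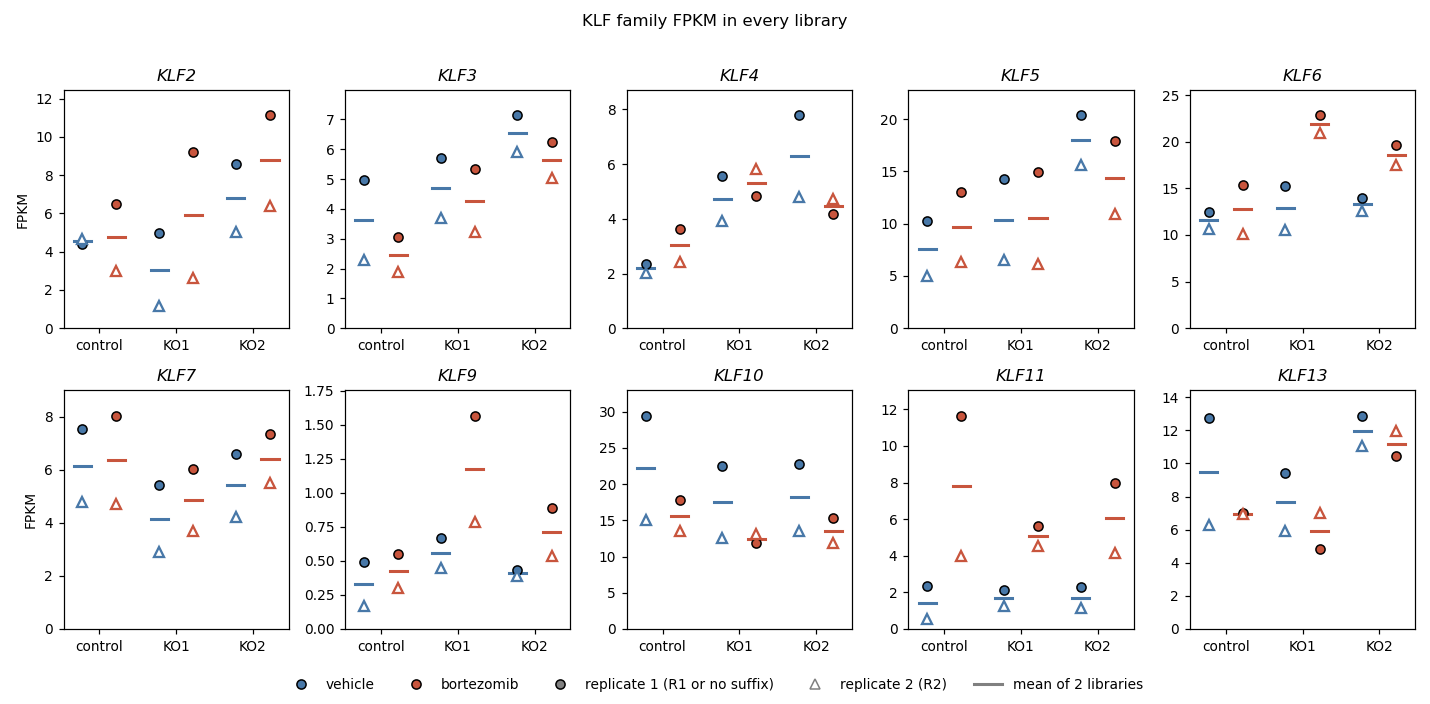
FPKM of the 10 KLF genes (y axis, a scale per gene starting at 0) in the control, KO1 and KO2 lines. Circles are replicate 1, open triangles replicate 2 and bars the mean of the 2 libraries of a group, in blue for vehicle and red for bortezomib. KLF11 in bortezomib lies at 4.00 or more in every library and in vehicle at 2.33 or less.

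The first comparison asked how 4 h of proteasome inhibition changed KLF RNA. KLF11, a TGF-β-inducible repressor that recruits SIN3A, rose in the mean of the 3 lines and was higher in every bortezomib library. In bulk RNA, a change in the share of cells with a transcript and a change in its amount per cell cannot be told apart. KLF11 (ENSG00000172059, chr2:10042849-10054836) was at 2.33 and 0.524 FPKM in control vehicle libraries and at 11.6 and 4.00 in control bortezomib libraries. In KO1 it was at 2.15 and 1.28 in vehicle and 5.64 and 4.53 in bortezomib, and in KO2 at 2.30 and 1.13 against 7.96 and 4.12. All 6 bortezomib libraries were above all 6 vehicle libraries, and replicate 2 was the lower library in each group. Those values rest on 45 to 255 reads per vehicle library and 342 to 751 per bortezomib library. Of 15 listed markers of A549 and other cell types, 7 were tested and 2 were called higher with bortezomib without the replicate term described above. They were COL1A1, by 1.77 log2 units (limma adjusted p = 0.00623), and EPCAM, by 0.93 (adjusted p = 0.0353). With the term KRT7 was also called higher, by 0.54 (adjusted p = 0.00294), and CDH1 lower, at −0.44 (adjusted p = 0.00319). Of all tested genes, 11.6% were called without the term and 54.9% with it. The count of markers called with the term was near that share. The fibroblast marker DCN did not exceed 0.0425 FPKM. The part of these markers in the KLF differences was not tested.

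Within replicate pairs, the ratio of bortezomib to vehicle FPKM for KLF11 was 4.99 and 7.64 in control, 2.62 and 3.54 in KO1 and 3.47 and 3.64 in KO2. Averaged over the lines, KLF11 was higher by 1.45 ± 0.30 (SE) on the log2(FPKM + 1) scale, with a limma adjusted p of 0.0150 without the replicate term and 4.65e-06 with it. This scale understates folds of low genes. On recovered reads, with limma's voom, the difference was 1.94 log2 units, with an adjusted p of 0.00905. KLF11 stood 95th from the highest of 12194 tested genes by size of change. It was called without any one of the 12 libraries, in both fits, with adjusted p up to 0.0487 without the replicate term.

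Per line, the log2 difference of KLF11 was 1.82 in control, 1.18 in KO1 and 1.35 in KO2. With the replicate term, all 3 were called, with limma adjusted p of 0.000161, 0.00131 and 0.000584. Without it none was called, with adjusted p of 0.165, 0.523 and 0.404.

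**Figure D2:**
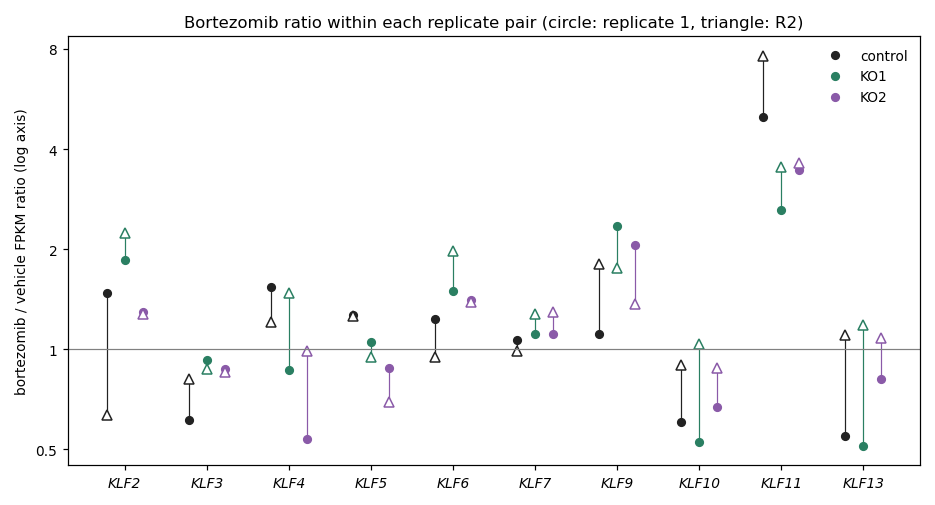
Ratio of bortezomib to vehicle FPKM (y axis, log scale) within replicate pairs for the 10 KLF genes. Filled circles are replicate 1, open triangles replicate 2, and the line joins the pairs of a cell line. All 6 KLF11 ratios lie at 2.62 or above, and in all 6 pairs KLF9 is above 1 and KLF3 below 1. The other members, KLF6 and KLF10 among them, have ratios on both sides of 1.

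KLF6 and KLF10 differed in opposite directions in the mean of the lines. Both were called only with the replicate term. KLF6 (ENSG00000067082, chr10:3775996-3785281) was at 12.5 and 10.7 FPKM in control vehicle and 15.4 and 10.1 in control bortezomib libraries. It was at 15.2 and 10.6 in KO1 vehicle and 22.8 and 20.9 in KO1 bortezomib, and at 14.0 and 12.6 in KO2 vehicle and 19.7 and 17.5 in KO2 bortezomib. The treatment groups did not overlap in KO1 or KO2 and overlapped in control.

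For KLF6 the mean log2 difference was 0.43, with a limma adjusted p of 0.179 without and 0.00283 with the replicate term. With the term it was called without any one of the 12 libraries. In KO1 alone it was 0.74, with adjusted p of 0.526 and 0.00816. That call was lost without replicate 2 of KO1 vehicle or without replicate 2 of KO1 bortezomib, with adjusted p of up to 0.0852. In KO2 it was 0.45, with an adjusted p of 0.0562 with the term by suffix and 0.0498 with the unnumbered libraries on R1. In control it was 0.11, with an adjusted p of 0.627.

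KLF10 (ENSG00000155090, chr8:102648779-102655902) was at 29.4 and 15.1 FPKM in control vehicle libraries and 17.8 and 13.5 in control bortezomib libraries. In KO1 it was at 22.5 and 12.6 in vehicle and 11.8 and 13.1 in bortezomib, and in KO2 at 22.8 and 13.5 against 15.3 and 11.8. The groups overlapped in all 3 lines, and in 5 of 6 pairs bortezomib was the lower library. The mean log2 difference was −0.40, with a limma adjusted p of 0.363 without and 0.0303 with the replicate term. The KLF10 call was lost without any one of the 6 replicate 1 libraries, where adjusted p reached 0.124. Its ratios were 0.61, 0.53 and 0.67 in the replicate 1 pairs and 0.89, 1.04 and 0.88 in the replicate 2 pairs of control, KO1 and KO2.

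No other member was called for bortezomib with limma in either fit of log2(FPKM + 1). KLF2, an endothelial and lymphocyte quiescence factor induced through ERK5 and MEF2, was at 1.17 to 11.1 FPKM over the 12 libraries. Its ratios were 1.48 and 0.63 in control, 1.86 and 2.24 in KO1 and 1.30 and 1.28 in KO2, and its mean log2 difference was 0.35, with an adjusted p of 0.0868 with the replicate term. KLF3, a CtBP-dependent repressor, was lower with bortezomib in 6 of 6 pairs, with ratios of 0.61 to 0.93. Its mean difference was −0.23 with an adjusted p of 0.0522 in that fit. The voom fit with the replicate term on recovered reads called both, KLF2 at 0.44 (adjusted p = 0.0409) and KLF3 at −0.31 (adjusted p = 0.00826).

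With the replicate term, the 95% interval of the mean log2 difference was −0.25 to 0.30 for KLF4, −0.26 to 0.24 for KLF5, −0.02 to 0.33 for KLF7 and −0.59 to 0.11 for KLF13. KLF4 is a differentiation and reprogramming factor, KLF7 is best known from neurons and KLF13 from T cells, where it controls chemokine expression. KLF13 was lower in the replicate 1 pairs, with ratios of 0.55, 0.51 and 0.81, and higher in the replicate 2 pairs, with 1.11, 1.18 and 1.08. KLF9 was higher with bortezomib in 6 of 6 pairs, at 0.165 to 0.668 FPKM in vehicle and 0.298 to 1.57 in bortezomib. Tested without the filter on low values, it differed by 0.28 log2 units, with a limma adjusted p of 0.358 without the replicate term and 0.0812 with it. KLF9 was not called in the KO comparisons or the interaction in those fits either.

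Of the 9 members tested in the mean of the lines, 1 was called higher and 0 lower without the replicate term, and 2 were called higher and 1 lower with it. Over all 12194 genes tested, 11.6% were called without the term and 54.9% with it. The members' shares of 11.1% and 33.3% were near and below those backgrounds, so the count is not a result about the family. The members' median log2 difference was 0.03, against −0.01 over all tested genes. Within single lines, limma called 0 members without the replicate term, where 1, 2 and 1 members had an unadjusted p under 0.05 in control, KO1 and KO2, and 0.467%, 0.238% and 0.32% of all genes were called. With the term, 1, 2 and 1 members were called against 32.4%, 27.7% and 27% of all genes. With the unnumbered libraries on R1, 1, 2 and 2 members were called against 32.5%, 27.9% and 27% of all genes, and 3 in the mean of the lines against 54.9%.

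**Figure D3:**
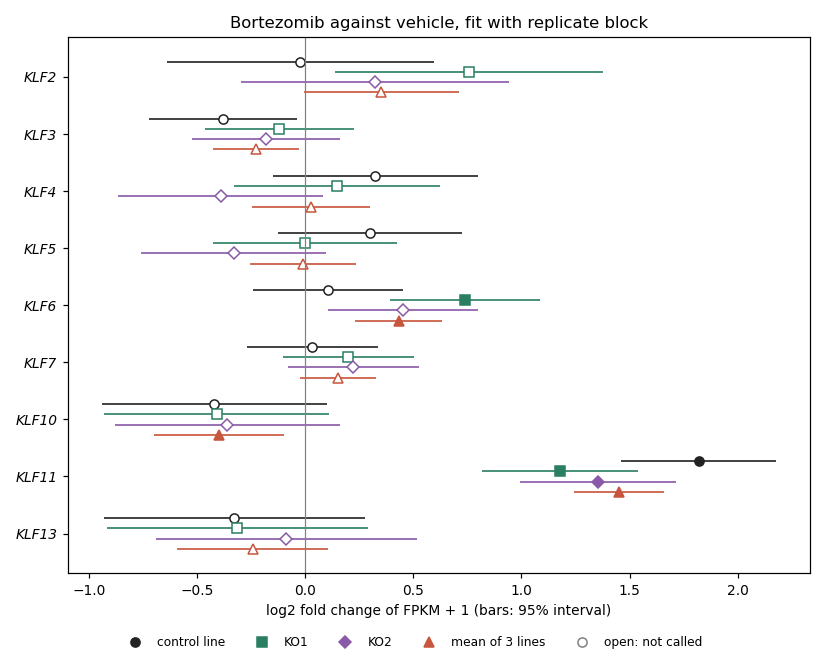
Log2 difference of FPKM + 1 between bortezomib and vehicle (x axis) for the 9 tested KLF genes, from the limma fit with the replicate term. Bars are 95% intervals and filled symbols have an adjusted p under 0.05. KLF11 is filled in each line, and the mean of the lines is also filled for KLF6 and KLF10.

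The second comparison asked what loss of NFE2L1 did to KLF RNA without the drug. With vehicle, KLF4, KLF5 and KLF3 were called higher in the mean of the KO lines and in KO2 than in control, with the replicate term only. In KO1 none was called with the term by suffix, with limma adjusted p of 0.0663, 0.292 and 0.160. Each call in the mean of the lines was lost when single libraries were left out. The KO1 and KO2 comparisons share the same control libraries. With the term by suffix, the level of the KO lines against control, averaged over vehicle and bortezomib, rests on the R2 libraries alone. This holds for the KO calls in vehicle and in bortezomib below. KLF4 (ENSG00000136826, chr9:107484852-107490482) was at 2.35 and 2.02 FPKM in control vehicle libraries, 5.55 and 3.93 in KO1 and 7.79 and 4.80 in KO2. All 4 KO vehicle libraries were above both control libraries.

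Averaged over KO1 and KO2, the log2 difference of KLF4 from control was 1.002 without the replicate term (limma adjusted p = 0.293) and 1.07 with it (adjusted p = 0.0255). This call was lost without any one of the 4 control libraries, vehicle or bortezomib, with adjusted p of up to 0.304. Against control, KO2 was higher by 1.23 with the term (adjusted p = 0.0236, and 0.346 without it), and KO1 by 0.90 (adjusted p = 0.0663). The KO1 difference was called, with an adjusted p of 0.0329, when the unnumbered control libraries were put on the R1 level of the replicate term.

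KLF5 (ENSG00000102554, chr13:73054976-73077542) was at 10.2 and 5.0 FPKM in control vehicle libraries, 14.2 and 6.50 in KO1 and 20.4 and 15.7 in KO2. KO2 lay above control and KO1 overlapped it. The mean of the KO lines was higher by 0.79 log2 units without the replicate term (limma adjusted p = 0.9999) and 0.85 with it (adjusted p = 0.0391), and KO2 alone by 1.26 with it (adjusted p = 0.0133, and 0.9999 without). The mean call for KLF5 was lost without any one of 8 libraries, the 4 control libraries, replicate 1 of KO1 vehicle, replicate 2 of KO2 vehicle and both KO2 bortezomib libraries, with adjusted p of up to 0.468.

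KLF3 (ENSG00000109787, chr4:38664196-38701042) was at 4.97 and 2.30 FPKM in control vehicle libraries, 5.72 and 3.70 in KO1 and 7.14 and 5.92 in KO2. Only KO2 was clear of control. The mean of the KO lines was higher by 0.55 without the replicate term (limma adjusted p = 0.9999) and 0.69 with it (adjusted p = 0.0386), and KO2 by 0.90 with it (adjusted p = 0.0231, and 0.9999 without). This call of KLF3 was lost without any one of 9 libraries, replicate 2 of control vehicle and the 8 KO libraries. Without replicate 2 of control vehicle the KLF3 difference was 0.42 with an adjusted p of 0.675, and without the other 8 libraries adjusted p was 0.0525 to 0.184.

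Other members were not called in vehicle. KLF7 was lower in KO1 in both pairs, at 5.43 and 2.90 FPKM against 7.53 and 4.78 in control, with a log2 difference of −0.46 and a limma adjusted p of 0.129 with the replicate term by suffix. It was called, at −0.49 with an adjusted p of 0.0469, when the unnumbered libraries were put on R1. KLF2 was at 4.96 and 1.17 FPKM in KO1 vehicle libraries, 8.58 and 5.02 in KO2 and 4.41 and 4.69 in control. The KLF2 libraries of KO1 spanned those of control. KLF11 differed by 0.59 log2 units with the replicate term (adjusted p = 0.0788) and by 0.24 without it (adjusted p = 0.9999). The 95% intervals with the term were −0.13 to 0.60 for KLF6, −0.72 to 0.38 for KLF10 and −0.36 to 0.92 for KLF13.

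Over the 9 tested members, limma called 0 in vehicle without the replicate term, 1 member (KLF4) having an unadjusted p under 0.05, and voom without the term also called 0. With the term 3 were called higher and 0 lower. Of all tested genes, 0.344% were called without and 6.18% with the term. NFE2L1 itself differed by −2.57 log2 units without the term and was not called (limma adjusted p = 0.0662). With the term it differed by −2.73 (adjusted p = 0.000112). A miss in the fit without the term thus does not show that a gene was unchanged. In KO1 alone 0 members were called, against 0.213% and 5.95% of all genes, and in KO2 alone 0 without and 3 with the term, against 0.23% and 4.91%. With the unnumbered libraries on R1 the mean of the lines had 3 called members against 8.21% of all genes, KO1 2 against 7.96% and KO2 3 against 4.89%. The members' median log2 difference was 0.16 without and 0.28 with the term, against 0.04 and 0.05 over all tested genes. Without the term, KLF4 stood 171st, KLF5 312th and KLF3 733rd from the highest of 12194 genes. The epithelial markers KRT8, KRT18, EPCAM and CDH1 were called higher in the KO lines in vehicle with the term, out of 7 tested marker genes. Their part in the KLF differences was not tested.

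In bortezomib, KLF3 and KLF6 were the members called between the KO lines and control, again with the replicate term only. KLF3 was at 3.05 and 1.87 FPKM in control bortezomib libraries, 5.32 and 3.23 in KO1 and 6.23 and 5.05 in KO2, with all 4 KO libraries above both control libraries. Its mean log2 difference was 0.92 with the term (limma adjusted p = 0.0118) and 0.78 without it (adjusted p = 0.765). With the term KO1 differed by 0.74 (adjusted p = 0.0393) and KO2 by 1.095 (adjusted p = 0.0118), and without it adjusted p was 1 for both. The mean call was lost without replicate 2 of control bortezomib or replicate 2 of KO2 bortezomib, with adjusted p of up to 0.0861.

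KLF6 in bortezomib was at 15.4 and 10.1 FPKM in control and at 17.5 or more in the KO libraries given above, which also did not overlap control. The mean difference was 0.73 with the term (limma adjusted p = 0.0303) and 0.65 without it (adjusted p = 0.859). KO1 differed by 0.84 with the term (adjusted p = 0.0258, and 0.869 without) and KO2 by 0.61 (adjusted p = 0.0937 with it). Leaving out replicate 2 of control bortezomib, either KO1 bortezomib library, either KO2 vehicle library or replicate 2 of KO2 bortezomib ended the KLF6 mean call, with adjusted p of up to 0.396.

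KLF4 in bortezomib was at 3.61 and 2.44 FPKM in control, 4.82 and 5.81 in KO1 and 4.17 and 4.74 in KO2, with a mean log2 difference of 0.62 and a limma adjusted p of 0.130 with the term. KLF5 differed by 0.39 (adjusted p = 0.282). For both, the KO difference was larger in vehicle than in bortezomib, and the test of that difference is the interaction given below. Limma called 0 of 9 members in bortezomib without the term, with 2 members at an unadjusted p under 0.05, and 2 with it, against 0.164% and 7.66% of all genes. NFE2L1 itself differed by −1.94 without the term (adjusted p = 0.209, not called) and −2.10 with it (adjusted p = 0.000478). With the term KO1 had 2 called members and KO2 1, against 7.54% and 4.81% of all genes (0.107% and 0.0656%, with 0 members, without it). With the unnumbered libraries on R1 the counts were 2 in the mean, 2 in KO1 and 1 in KO2, against 12.7%, 12.8% and 6.47%. The members' median was 0.33 without and 0.39 with the term, against 0.05 and 0.06 over all genes. Of the 7 tested markers, 3 were called higher in the KO lines in bortezomib with the term, KRT18 by 1.55, KRT8 by 1.31 and AKR1B10 by 0.90, and 0 without it. Their part in the KLF3 and KLF6 differences was not tested.

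**Figure D4:**
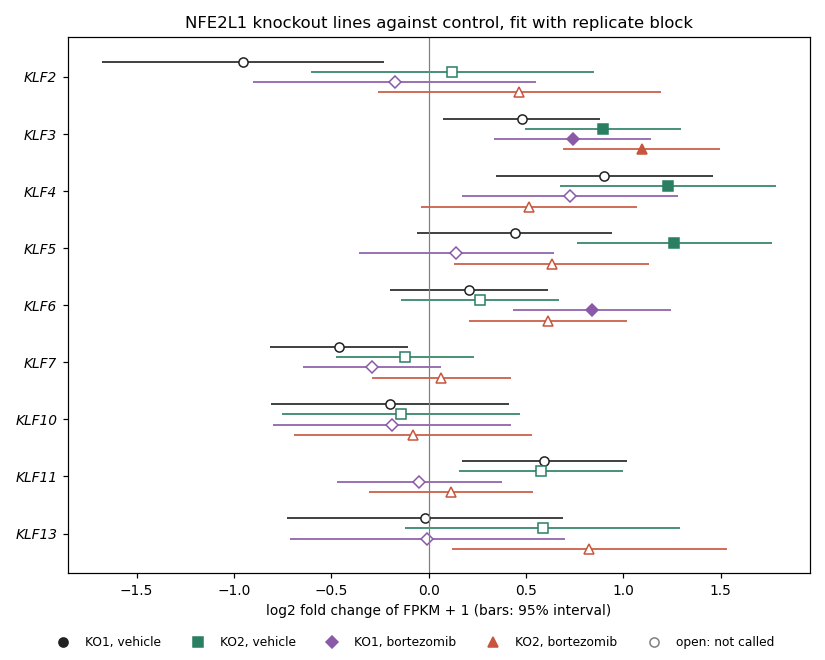
Log2 difference of FPKM + 1 between each NFE2L1 knockout line and the control line (x axis), in vehicle and in bortezomib, for the 9 tested KLF genes, from the limma fit with the replicate term. Bars are 95% intervals and filled symbols have an adjusted p under 0.05. KLF3, KLF4 and KLF5 are filled for KO2 in vehicle, KLF3 for both lines in bortezomib and KLF6 for KO1 in bortezomib.

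The interaction asked whether bortezomib acted differently on a KLF gene once NFE2L1 was knocked out. For KLF11 the mean bortezomib difference was smaller in the KO lines by 0.55 log2 units (95% interval −0.99 to −0.11 with the replicate term), with a limma adjusted p of 0.339, and of 1 without the term. For KLF6 it was larger in the KO lines by 0.49 (0.07 to 0.91), with an adjusted p of 0.3895. KLF4 and KLF5 had interactions of −0.45 (−1.03 to 0.13) and −0.47 (−0.99 to 0.06), with adjusted p of 0.589 and 0.515. Limma called 0 members and 0% of all 12194 genes in either fit. Before adjustment, 0 members had p under 0.05 without the term and 2, KLF6 and KLF11, with it. Voom called 0 members with and without the term, and 1.16% and 0% of all genes. A miss of the threshold here does not show that the lines responded alike.

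KO1 and KO2 were also set against each other. In vehicle KLF5 was lower in KO1 by 0.82 log2 units and KLF2 by 1.08, with limma adjusted p of 0.0561 and 0.0807 with the replicate term by suffix. KLF5 passed, at 0.0471, with the unnumbered libraries on R1. KLF2 was lower in KO1 than in KO2 in both pairs of each treatment. KLF13 was at 4.84 and 7.01 FPKM in KO1 bortezomib libraries and at 10.4 and 12 in KO2, a difference of −0.83 with an adjusted p of 0.189. Limma called 0 members in either treatment by these fits, with 0.0656% and 0.041% of all genes passing without and 3% and 1.82% with the term, and 2.48% in vehicle with the unnumbered libraries on R1, where KLF5 was the 1 member to pass. Before adjustment, 0 members in vehicle and 1 in bortezomib had p under 0.05 without the term, and 5 in each with it.

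Other genes of the family and its partners were taken from lists. Of 17 other KLF and SP genes, 7 passed the filter on low values, namely KLF16, SP1, SP2, SP3, SP4, SP6 and SP9. For bortezomib in the mean of the lines, 1 was called higher without the replicate term, and 2 higher and 4 lower with it, with a median log2 difference of −0.32. Over all tested genes 11.6% and 54.9% were called in those fits, which are also the backgrounds for bortezomib in the lists that follow. SP6, a factor of tooth and epidermal development, was higher by 0.70 (limma adjusted p = 0.0200 without and 0.000304 with the term). With the term SP2 was higher by 0.53 and SP1, the widely expressed GC-box activator, differed by −0.48 (adjusted p = 0.00146). In KO lines with vehicle, SP1 was called with the term, at 0.73 (adjusted p = 0.0299, and 0.9999 without it), 1 of 7 tested genes against 6.18% of all genes.

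Among 12 co-repressors and co-activators, KAT2B, a histone acetyltransferase, fell with bortezomib by 0.81 log2 units (limma adjusted p = 0.0127 without and 5.33e-05 with the term). It was the 1 gene of the list called without the term. With it, CREBBP, another acetyltransferase, rose by 0.76 and HDAC2 by 0.28, and HDAC1 and SIN3A differed by −0.45 and −0.38. That made 5 of 12, below the 54.9% of all genes, and the list's median was 0.06. No gene of the list was called between KO lines and control, in vehicle or in bortezomib, by limma in either fit.

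The kinase cascade that ends in ERK5 and MEF2 factors is a known input to KLF2 and KLF4, among others. Of 7 listed genes 6 were tested. MEF2A was at 2.13 to 4.89 FPKM in vehicle libraries and 5.69 to 10.6 in bortezomib libraries, with no overlap. Its log2 difference was 0.98 (limma adjusted p = 0.0133 without and 3.51e-05 with the term). MAP2K5 at 0.45 and MEF2D at 0.31 were called with the term only, and 0 genes of this list were called lower. With the term 3 of 6 were called, all higher, against 27% of all genes called higher and 54.9% called in either direction. This list too was chosen with earlier results of these data known. KLF2 and KLF4 themselves were not called for bortezomib in those fits.

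Ubiquitin ligases and deubiquitinases reported for KLF proteins numbered 13, with 10 tested. With the replicate term 6 rose with bortezomib and 0 fell, against 27% of all genes called higher and 27.9% called lower. Without it 0 were called against 11.6%. The list was chosen with earlier results of these data known, so the count is a description. SMURF1, a ligase reported for KLF2, was higher by 0.68 (limma adjusted p = 0.0911 without and 0.000156 with the term). ITCH at 0.42, USP10 at 0.39, BAP1 at 0.39, WWP1 at 0.37 and FBXW7 at 0.35 were the others. In the mean of the KO lines SMURF1 was called higher with the term only, by 0.68 in vehicle (adjusted p = 0.0320) and 0.75 in bortezomib (adjusted p = 0.0208), but not in KO1 alone in vehicle. TRIM25 was called with it in bortezomib, by 0.86 (adjusted p = 0.0371, and 0.772 without). These are 1 and 2 of 10 genes, against 6.18% and 7.66% of all genes.

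Of 20 genes reported as KLF targets, 15 were tested. For bortezomib 2 were called higher and 2 lower without the replicate term, and 5 and 6 with it, and the list's median was −0.06. All genes were called at 11.6% and 54.9% in those fits. ATF3, a stress-induced bZIP factor, was at 0.213 to 0.749 FPKM in vehicle and 5.11 to 27.3 in bortezomib libraries, a difference of 3.52 (limma adjusted p = 3.59e-05 without the term). ATF3 passed the filter of a mean FPKM of 1 only through its bortezomib libraries, so its call and its place in the count are a description. CDKN1A, the cyclin-dependent kinase inhibitor that KLF4 and KLF6 activate, rose by 2.25 (adjusted p = 0.00355). Cyclin B1 (CCNB1) and survivin (BIRC5), both of the cell division machinery, fell by 1.30 and 1.35 (adjusted p = 0.0229 and 0.0362). EDN1, the vasoconstrictor endothelin, was higher by 1.31 and was called with the term only. Those target genes have many other regulators.

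In the KO lines with vehicle, 2 of 15 reported targets were called higher and 2 lower, with the term only, against 6.18% of all genes. KRT4, an epithelial keratin reported as a KLF4 target, had a log2 difference of 1.25 (limma adjusted p = 0.0251), but its FPKM was 0.190 and 0.258 in control, 0.131 and 0.520 in KO1 and 1.68 and 5.31 in KO2. KO1 thus overlapped control, and KO2 did not. CCND1 was higher by 1.02, and EDN1 and THBD differed by −0.94 and −0.74. In bortezomib ATF3, CDKN1B and KRT4 were called higher in the KO lines with the term only, by 1.67, 0.81 and 1.07, and 0 were called lower, against 7.66% of all genes. KRT4 was there at 0.215 and 0.337 FPKM in control, 0.229 and 0.576 in KO1 and 1.31 and 3.66 in KO2, so KO1 again overlapped control. In all control and KO1 libraries KRT4 was below 1 FPKM. It passed the filter only through KO2, so both of its calls are a description.

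The genes most like each member were taken by Pearson r of log2(FPKM + 1) over the 12 libraries, after removal of the mean of the 6 replicate 2 and of the 6 other libraries. The libraries share lines and treatments, so these r are a description. KLF11 had the highest values with ZNF778 (0.981), BRSK2 (0.979) and NOCT (0.975). KLF5 was most like PRR5L (0.972), KRT4 (0.946) and FGB (0.936). KLF3 was most like BAIAP2L2 (0.957), MTMR11 (0.956) and ALDH1A3 (0.954), and KLF6 like ELK1 (0.956), HOXC9 (0.951) and FAM167A (0.948). For KLF4 the nearest were PHLDA2 (0.931), WNT9A (0.923) and DDX51 (0.912). KLF7 was nearest to SEPTIN2 (0.955), AGPS (0.955) and ACP1 (0.95). The nearest to KLF10 were FAM127A (0.947), C11orf1 (0.937) and ACOT1 (0.926), and to KLF13 NPAS2 (0.927), CIC (0.924) and TXN (0.921). KLF2 had lower values, led by RPL18AP3 (0.894), MRPL1 (0.881) and CYP2S1 (0.878). Between members, KLF3 and KLF5 were most alike at 0.80 and KLF6 and KLF10 least at −0.65.

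Gene models that share sequence or position with the members were mostly at low FPKM. The 8 pseudogenes named after members did not exceed 0.408 FPKM in any library. KLF3 lies opposite KLF3-AS1, which was at 0.0147 to 0.212 FPKM, and the antisense model opposite KLF11 was listed at 0. KLF7-IT1, within an intron of KLF7 on the same strand, reached 1.30 FPKM. The microRNA gene MIR7845, on the strand opposite KLF7, reached 1.63 FPKM. No strand setting of the counting is given in the sources used here, so reads from overlapping models cannot be told apart.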

How the data were processed

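The deposited table gives FPKM for 58676 genes in 12 RNA-seq libraries and a gene length. Per the submitters' processing notes, the authors used CASAVA, STAR 2.5, HTSeq 0.6.1 and DESeq2 with hg19. The table's positions are nonetheless those of GRCh38: all 58676 IDs are in GENCODE 29 and 95.24% have the same position there, all 10 KLF genes among them. Coordinates in the report are the table's. FPKM times length gave whole reads (tolerance 0.05) for 100.0% of values in every library, which gave the depth.

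The main test was limma 3.58.1 (R 4.3.3; eBayes with a trend) on log2(FPKM + 1), pseudocount 1, with 1 mean per group and all 12 libraries in a fit. The 12194 genes whose mean FPKM reached 1 were tested, with Benjamini-Hochberg adjustment over all of them and calls at an adjusted p under 0.05. It had no replicate term. The second fit had the title suffix (R1, R2 or none) as a block. Across genes, the difference between the replicates of a group correlated between all 15 pairs of groups, at r of 0.696 to 0.890 (0.805 to 0.890 among the 6 pairs of KO groups). This shows a shift shared by the R2 libraries, but not that single libraries were matched across groups. Replicate pairs between KO and control lines set R1 beside control libraries with no suffix, whose match is not known. R1 occurs in KO groups only and the unnumbered libraries in control groups only. In the fit by suffix, the level of KO against control lines, averaged over vehicle and bortezomib, therefore rests on the R2 libraries alone. The other libraries enter there only through the difference between the treatments. Alternatives were the unnumbered libraries on R1, a pseudocount of 0.1, no filter, a mean FPKM of at least 5, a common sum, quantile normalization, removal of mitochondrial genes, voom on recovered reads and each library left out. Leaving out libraries within the blocked fit, and the block in the fit with no filter (for KLF9), were added after seeing the data. The fits were also run on simulated data in which all groups shared the same R2 shift and the unnumbered libraries had no level of their own. That run cannot show how the fits act where the unnumbered control libraries differ from R1.

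Named were all 10 members, NFE2L1, up to 6 called genes per list by size of change, and for each tested member the 3 genes with the highest r. The members and lists were chosen with earlier results of these data known. Promoters came from RefSeq tables matched by symbol, with Python 3.11.15, pandas 2.3.3 and numpy 2.4.6.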

Additional observations from a re-analysis of the deposited data

How the results depend on the processing

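No result of the family changed direction, counting an estimate within 1 SE of 0 as having none. The number of the 9 tested members called stayed within 1.5 times the main count in every fit with a library left out and no replicate block, and under the other pseudocount, scalings and voom without a block. The replicate block changed it. Without the block it was 0 for bortezomib in control, KO1 and KO2, 1 in the mean of the lines, 0 for the KO lines in vehicle, 0 in bortezomib and 0 for the interaction. With the replicate block by title suffix it was 1, 2, 1, 3, 3 and 2 in the first 6 of these, with the unnumbered libraries on R1 1, 2, 2, 3, 3 and 2, and with voom and the replicate block 2, 3, 2, 5, 3 and 2, against 40.7%, 35.1%, 35.9%, 60%, 11.7% and 14.7% of all genes. The interaction stayed at 0 in each. With a mean FPKM of at least 5, KLF11 falls below the filter, 6 members were tested and 0 were called in the mean of the lines. Over all genes, the bortezomib calls in the mean of the lines numbered 1415 without and 6690 with the block, and 1856 and 7315 by voom. The KO calls in vehicle numbered 42 and 754, and 31 and 1421 by voom. Of the single-gene values outside left-out libraries, 570 kept their status, called or not called, and 39 gained a call. In the blocked fit with a library left out, 709 kept their status, 10 gained a call and 37 lost one. Values that were never called count as kept, so these numbers do not give the share of calls that held. The cause was not tested.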
